A study of Homo sapiens with 2 samples.

Results

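The 10 genes described here encode the surface receptors and granule proteins by which a finished platelet is recognised: the integrin subunits ITGA2B and ITGB3, the von Willebrand factor receptor subunits GP1BA, GP1BB, GP9 and GP5, the collagen receptor GP6, and the granule proteins PF4, PPBP and SELP. They were chosen by gene symbol, and every probe set that the platform annotation gives to one of the symbols was taken. This found all 10 genes on 21 of the array's 54613 probe sets other than controls, of which 19 carried a single symbol and 2, those of GP1BB, were shared with neighbouring genes. Expression was measured on Affymetrix arrays in K562, an established human erythroleukemia line grown in suspension, which can be pushed towards red cell or megakaryocyte traits in culture. One culture was nucleofected with 3 µg of a control mimic, a small RNA without homology to human genes, and the other with 3 µg of a miR-34a mimic, and total RNA was taken 24 h later in both. Each group is 1 array, so every value is a single measurement, no test between the groups could be run, and sizes are given instead.

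Megakaryocytes mature by copying their genome without dividing and by filling their cytoplasm with membranes and granules, and they shed platelets at the end. ITGA2B (CD41) and ITGB3 (CD61) form the fibrinogen receptor, and ITGA2B reaches the cell surface only together with ITGB3. The GPIb-IX-V complex holds platelets to von Willebrand factor under flow, and GP6 starts signalling on collagen. PF4, PPBP and the adhesion receptor SELP (P-selectin) are stored in alpha granules. ITGA2B appears early in the lineage, whereas the GPIb genes and the granule chemokines mark later stages.

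The mature human miR-34a-5p that the mimic imitates is shown because it is the only difference between the groups that the labels describe. Bases 2 to 8, the seed that pairs with target mRNAs, are in capitals. The sequence is RefSeq's (GRCh38.p14, chr1:9151735-9151756, minus strand).
hsa-miR-34a-5p: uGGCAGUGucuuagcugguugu

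A signal was read against 27 probe sets for bacterial transcripts, whose highest value on either array, 75.4, is called the background limit here. A signal at or under it shows only that the probe set did not stand out, not that the transcript was absent. The limit was exceeded by 35.1% of probe sets in the control and by 35.5% with miR-34a, and the median signals were 39.5 and 40.1. The 3′ to 5′ signal ratio, which grows as RNA degrades, was 3.07 and 3.53 for GAPDH and 4.30 and 4.54 for ACTB, higher on the miR-34a array in both cases. The part of this in the ratios below was not tested. The label K562 was checked with 20 erythroid marker genes, of which 12 passed the level filter described below, all of them above the background limit on at least 1 array. Among markers of other cells, 2 of 13 endothelial, 5 of 13 myeloid and 3 of 11 lymphoid genes did so.

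Of the 10 genes, 2 read above the background limit on a probe set of their own, ITGA2B and GP6. The GP1BB probe sets did too, but they are shared. For the other 7 genes, ITGB3, GP1BA, GP9, GP5, PF4, PPBP and SELP, all 14 probe sets read within background on both arrays, between 1.0 and 74.2. Counted by probe set, 4 of 21 exceeded the limit in the control culture and 5 of 21 with miR-34a. The 4 that exceeded it on both arrays, 2 of them the shared GP1BB probe sets, read higher with miR-34a, with log2 ratios between 0.35 and 1.0. Of all 18242 probe sets above it on both arrays 47.6% read higher. The other of the 5, an ITGA2B probe set, exceeded it only with miR-34a and could differ in no other direction. In the plot of signals by probe set these 5 have a point to the right of the dashed limit.

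**Figure D1:**
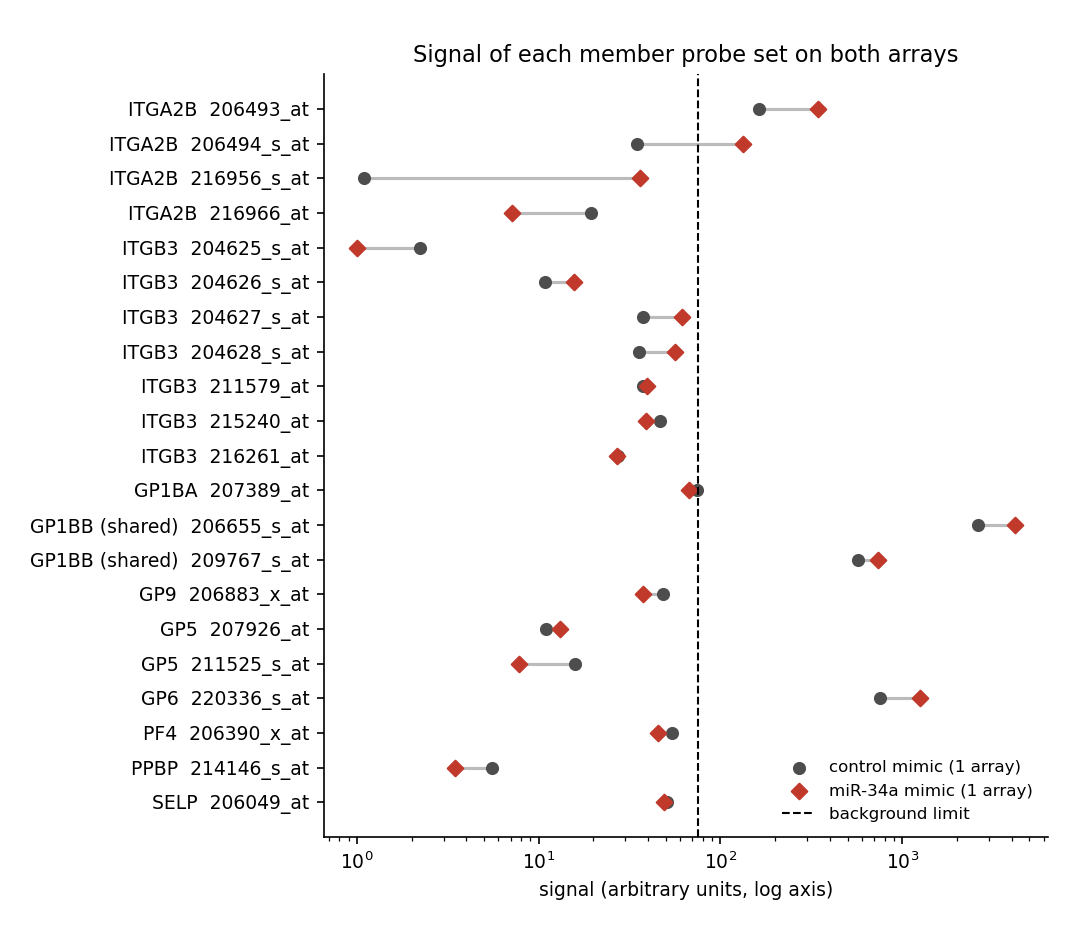
Signal in arbitrary units (log axis) of the 21 probe sets of the 10 genes, with 1 point per array for the control mimic (circle) and the miR-34a mimic (diamond) and a grey line joining them. The dashed line is the background limit of 75.4, which only ITGA2B, GP6 and the shared GP1BB probe sets exceed.

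Log2 ratios are differences in log2(signal + 14.9), miR-34a minus control, from which the median of all expressed genes was taken off, and they understate differences of dim probe sets. A probe set passed the level filter, and is called expressed, when its level, averaged over the arrays, reached the median of all probe sets, a signal of about 39.0. This filter lies under the background limit, and of the 12 probe sets of the 10 genes that passed it, 7 read within background on both arrays. At least 2-fold higher with miR-34a was 1 of the 12, against a background of 0.531% of all 27307 expressed probe sets, and 0 were at least 2-fold lower, against 0.505%. At least 1.5-fold higher were 4 of the 12, against 3.16%, and 0 were at least 1.5-fold lower, against 3.00%. Those 4 were both expressed ITGA2B probe sets, the GP6 probe set and the brighter GP1BB probe set. The median log2 ratio of the 12 was 0.41, and that of all expressed probe sets was -0.0039. The 1 past 2-fold, ITGA2B 206494_s_at, read 34.7 in the control, under the filter, and passed only through its miR-34a signal of 132.7. ITGB3 204627_s_at and 204628_s_at, at 37.5 and 35.6 in the control, passed likewise. GP9, at 37.4 with miR-34a, passed only through the control. For these probe sets the filter favours 1 direction, so the counts and the median are description only.

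ITGA2B, the alpha subunit of the fibrinogen receptor, read higher with miR-34a on both of its expressed probe sets. Probe set 206493_at went from a signal of 163.4 to 344.0, above the background limit on both arrays. This was 2.10-fold in signal and a log2 ratio of 1.0, just under 2-fold before rounding, which was reached or passed by 0.535% of all expressed probe sets. Probe set 206494_s_at went from 34.7, within background, to 132.7, above it. Its log2 ratio was 1.56, and set against the background limit in place of the dim control signal the difference was at least 1.76-fold. The remaining probe sets of the gene lay under the filter and gave opposite signs. Probe set 216956_s_at read 1.1 and 36.1, the former next to the table's floor of 1, and 216966_at read 19.5 and 7.2. Both stayed within background on both arrays, so no direction is taken from them. ITGA2B therefore had 1 probe set above background on both arrays, 206493_at, and it read higher with miR-34a. As 206494_s_at exceeded the limit only with miR-34a, it could differ in no other direction and is not counted as a second reading. In RNA of a whole culture, more cells with the transcript and more transcript per cell cannot be told apart.

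ITGB3, the beta subunit, was not detected above background in either culture. Its 7 probe sets read from 2.2 to 46.3 in the control and from 1.0 to 61.6 with miR-34a. The pair brightest with miR-34a, 204627_s_at and 204628_s_at, read 37.5 and 35.6 in the control and 61.6 and 56.0 with miR-34a. Their log2 ratios were 0.54 and 0.48, and the remaining expressed probe set, 215240_at, gave -0.19 from signals of 46.3 and 39.1. Over all 7, 4 were higher and 3 lower. At the level of 204627_s_at, the 5th to 95th percentile of expressed probe sets ran from -0.50 to 0.55, which holds all 3 values. Of 12 other integrin subunits listed, 6 were expressed, 3 of them higher and 3 lower, with a median log2 ratio of 0.12. ITGAV, which also pairs with ITGB3 as the vitronectin receptor, was the highest and went from 239.9 to 384.2, a log2 ratio of 0.64. ITGB5, another partner of ITGAV, gave 0.37 on its brightest probe set and up to 0.51 on others. ITGB1, the shared beta subunit of many matrix receptors, was the lowest of the integrin list at -0.18 and lay between -0.26 and -0.18 over 3 expressed probe sets. The collagen receptor alpha subunit ITGA2 read at most 29.1, within background.

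GP6, the collagen receptor of platelets, was measured by 1 probe set, 220336_s_at, and was well above background in both cultures. Its signal was 750.4 with the control mimic and 1250.0 with miR-34a, a ratio of 1.67 in signal and a log2 ratio of 0.72. Of all expressed probe sets, 1.67% had a log2 ratio as high. Expressed probe sets of like level, within 0.25 log2 units of it, had a 5th to 95th percentile range of -0.52 to 0.42, and GP6 lay above that range. With a single probe set there is no second reading of GP6. In the RefSeq gene table GP6 overlaps the transcript GP6-AS1, and whether the probe set reads that transcript was not tested. The signalling partner of GP6, the Fc receptor gamma chain FCER1G, read 45.0 and 56.8, within background on both arrays. The genes of ITGA2B and GP6 thus had own probe sets above background with log2 ratios of 1.0 and 0.72, while the partner subunits ITGB3 and FCER1G were within background.

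**Figure D2:**
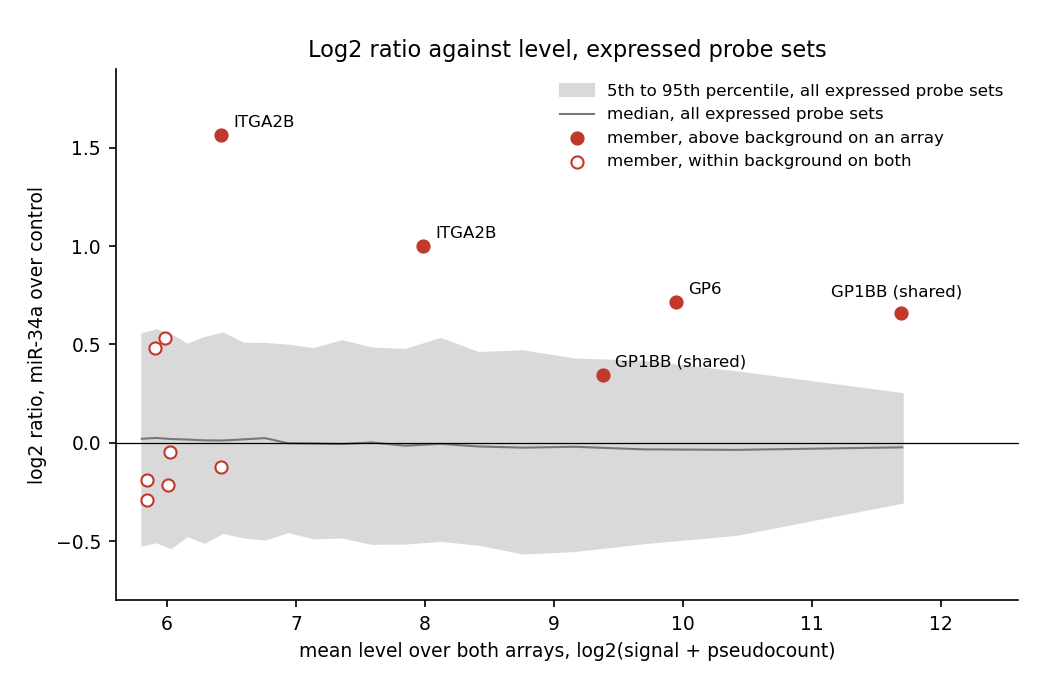
Log2 ratio of miR-34a over control against mean level, log2(signal + pseudocount), for the 12 expressed probe sets of the 10 genes (points; filled where a signal exceeds the background limit) over the 5th to 95th percentile (grey) and median of all expressed probe sets in 20 level bins. Both ITGA2B points, GP6 and the brighter shared GP1BB point lie above the grey band, and the other 8 lie within it.

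The GPIb-IX-V complex was read unevenly. GP1BA, its ligand-binding chain, had signals of 74.2 and 67.3, just under the background limit in the control. GP9, the small chain needed for its assembly, read 48.5 and 37.4. GP5, the subunit cut by thrombin, read 10.9 and 13.1 on 207926_at and 15.8 and 7.8 on 211525_s_at. None of these 4 probe sets stood above background, and no direction is taken from them.

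GP1BB, the beta chain, lies next to the septin gene SEPTIN5 and is joined to it in the readthrough transcript SEPT5-GP1BB. Its probe sets carry all 3 names, and the array does not say which transcript they read. Probe set 206655_s_at had 2611.6 in the control and 4154.1 with miR-34a, a log2 ratio of 0.66. Probe set 209767_s_at had 573.5 and 737.3, a log2 ratio of 0.35. Both were higher with miR-34a, the first above and the second within the 5th to 95th percentile of expressed probe sets of like level, which ran from -0.31 to 0.27 and from -0.53 to 0.41. A further pair of probe sets is annotated to the readthrough transcript alone. Of these, 209768_s_at read 64.3 and 83.8, with a log2 ratio of 0.31, and 209769_s_at read 28.6 and 26.5, within background. GP1BB is therefore reported as a shared signal and is not counted as detected.

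The granule genes gave no signal above background. PF4 (CXCL4), a chemokine that binds heparin, read 54.3 in the control and 45.1 with miR-34a on a probe set of the _x_at class, which can pick up related sequences. Its near copy PF4V1 read 11.4 and 12.9. PPBP (CXCL7), the precursor of the beta-thromboglobulins, read 5.5 and 3.5. SELP, which moves from the granule membrane to the surface on activation and is also made by endothelium, read 50.8 and 49.2. The log2 ratios of PF4, PPBP and SELP were -0.22, -0.16 and -0.04, all read from dim signals. Of the 13 endothelial markers 3 were expressed, with a summed signal of 251.6 in the control and 276.0 with miR-34a. VWF read above background on both arrays on 1 probe set, while its other read 12.2 and 14.0. ROBO4, at 73.8 and 87.9, exceeded the limit with miR-34a only, and its other probe set, at 66.2 and 68.0, did not. The cadherin gene CDH5 read 7.1 and 1.0 and the receptor gene KDR 22.5 and 19.5.

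Promoters are shown for the members above background on probe sets of their own, ITGA2B and GP6, and for PPBP, a granule gene within background. Each run is the 250 bases before the RefSeq start of the gene (GRCh38.p14), read on the strand of the gene: chr17:44389650-44389899, minus strand, for ITGA2B, chr19:55038265-55038514, minus strand, for GP6, and chr4:73988191-73988440, minus strand, for PPBP. Capitals mark matches on either strand. Letters bound by GATA factors were searched as AGATAA, with the variants that end in G (AGATAG), that start with T (TGATAA) and that do both (TGATAG). Letters bound by ETS factors such as FLI1 were searched as GGAAG.
ITGA2B: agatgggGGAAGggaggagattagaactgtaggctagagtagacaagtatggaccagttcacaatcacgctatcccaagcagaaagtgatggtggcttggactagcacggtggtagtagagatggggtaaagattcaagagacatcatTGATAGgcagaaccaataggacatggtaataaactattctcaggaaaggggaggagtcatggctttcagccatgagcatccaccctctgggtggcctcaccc
GP6: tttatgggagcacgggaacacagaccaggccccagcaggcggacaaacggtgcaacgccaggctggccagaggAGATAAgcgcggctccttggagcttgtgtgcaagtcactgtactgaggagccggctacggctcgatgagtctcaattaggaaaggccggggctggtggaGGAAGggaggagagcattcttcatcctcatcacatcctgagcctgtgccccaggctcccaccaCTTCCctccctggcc
PPBP: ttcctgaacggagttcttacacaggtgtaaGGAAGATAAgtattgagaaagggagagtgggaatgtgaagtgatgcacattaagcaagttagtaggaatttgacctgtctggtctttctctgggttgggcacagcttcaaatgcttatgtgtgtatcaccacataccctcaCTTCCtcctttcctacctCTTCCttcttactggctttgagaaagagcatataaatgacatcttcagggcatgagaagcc

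In the ITGA2B window there was 1 GATA match, TGATAG, 102 to 97 bases before the start, and 1 ETS match, 243 to 239 bases before it. The GP6 window held AGATAA 177 to 172 bases before the start and 2 ETS matches, the nearer at 15 to 11 bases. In PPBP the AGATAA match, 217 to 212 bases before the start, overlaps 1 of the 3 ETS matches. Such windows were held for 7 of the 10 genes, and 6 had a GATA match and 7 an ETS match. Over all 35116 windows of that length, 22.3% had a GATA match and 65.1% an ETS match. All 3 windows shown, of members above and within background, hold both kinds of match. A match is a description of letters, and binding was not measured here.

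The other genes of platelet adhesion, signalling, granules and cytoskeleton were taken from 8 lists of 131 genes in all. Of these, 96 were expressed, each read by its brightest expressed probe set, and 68 had a log2 ratio above 0 and 28 below it. That is 70.8%, against 50% of all 12774 expressed genes, a share that the centring fixes. The lists were chosen with earlier results of these data known, so their counts and medians are description only. At least 2-fold higher were 3, MEIS1, TUBB1 and TPM1, and 1, CAVIN2, was at least 2-fold lower on its brightest probe set but not on its other, against backgrounds of 0.595% and 0.548% of expressed genes. The median log2 ratio of the 96 was 0.17, against 0 for all expressed genes. Of the 81 that read above the background limit on both arrays, 57 were higher, 70.4% against 48.6% of the 9639 such genes in all. The erythroid markers moved the same way by more: 11 of 12 expressed were higher, with a median of 0.37. GATA1, TAL1 and LMO2 are among these 12 and also in the platelet lists, so the sets are not separate. Past 2-fold were 2, ALAS2 of heme synthesis at 1.88 and the red cell anion exchanger SLC4A1 at 1.17, both from control signals within background. ALAS2, at 24.6 in the control, passed the level filter only through its miR-34a signal of 131.4. The summed signal of those 12 was 27355 in the control and 32926 with miR-34a, and their part in the platelet list values was not tested. Of the 55 genes with 2 or more expressed probe sets, 33 had all of them on the same side of 0.

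**Figure D3:**
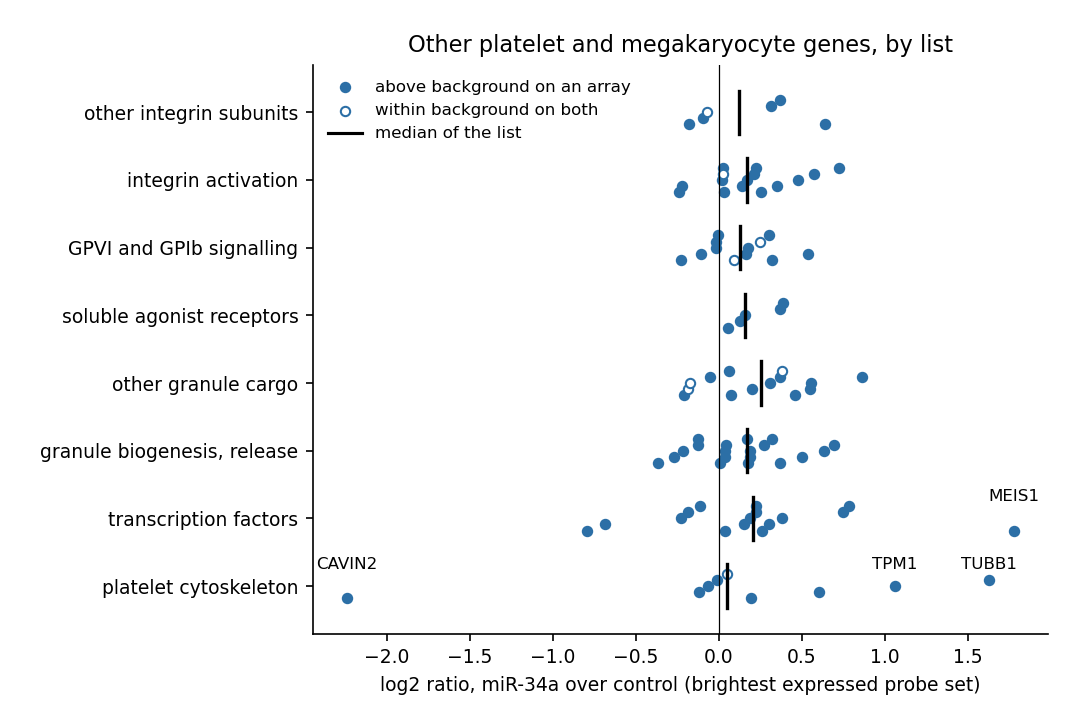
Log2 ratio of miR-34a over control for the 96 expressed genes of 8 platelet and megakaryocyte lists, 1 point per gene from its brightest expressed probe set, open where both arrays read within background, with the median of each list as a bar. The list medians lie between 0.049 and 0.26, and only MEIS1, TUBB1, TPM1 and CAVIN2 pass 2-fold.

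Genes that switch integrins to their active form were mostly a little higher on their brightest probe set. In that list 13 of 15 expressed genes had a ratio above 0, the median was 0.17, and 0 passed 2-fold. Of the 6 with 2 or more expressed probe sets, 3 had all of them on the same side of 0. RAP1A, RASGRP2 and SKAP2 gave 0.26, 0.03 and 0.48 on the brightest, but -0.16, -0.13 and -0.36 on the lowest. FERMT3 (kindlin-3), which binds the beta subunit tail, went from 1172.6 to 1766.6, a log2 ratio of 0.58 on its single expressed probe set. The adaptor gene FYB1 was highest at 0.72, with 52.3 within background in the control and 96.7 with miR-34a, which is at least 1.28-fold. The focal adhesion gene VCL was lowest at -0.24, from 2875.1 to 2444.9. In the list for signalling below GP6 and GPIb, 7 of 12 genes were higher, with a median of 0.13, the kinase gene BTK highest at 0.54 and PECAM1, an inhibitory receptor of platelets, lowest at -0.23. Of the receptors for soluble agonists, 5 of 11 were expressed, and all 5 were higher on the brightest probe set, with a median of 0.16. The probe sets of 4 of them lay on both sides of 0, and the fifth, P2RX1, was within background in the control. The thromboxane receptor gene TBXA2R was highest at 0.39 and the prostaglandin receptor gene PTGER3 lowest at 0.057. Another probe set of TBXA2R gave -0.04, of PTGER3 -0.53, of F2R -0.07 and of P2RY1 -0.06. The ADP receptor P2RY12, typical of platelets, read at most 25.8, within background.

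Of 22 genes for other cargo of platelet granules, 14 were expressed, 10 of them higher and 4 lower, with a median of 0.26. Of these 14, 11 read above the background limit on at least 1 array and 3 did not. PDGFB, a growth factor gene, was highest at 0.86, with signals of 109.5 and 213.0, and the lysosomal membrane gene LAMP1 was lowest at -0.21. VWF, the ligand of GPIb, read 119.9 and 126.8 on its single expressed probe set, a log2 ratio of 0.063. Of 22 genes for granule biogenesis and release, 19 were expressed, all above the background limit on at least 1 array, and 14 were higher, with a median of 0.17.

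The extremes of the granule machinery list were NBEAL2 and RAB27A. NBEAL2, which alpha granules need to form, went from 172.8 to 290.1, a log2 ratio of 0.69. The small GTPase gene RAB27A was lower on each of its 5 expressed probe sets, between -0.62 and -0.37, with signals of 2163.6 and 1684.8 on the brightest. Its relative RAB27B, which acts in platelet dense granule release, went the other way on its expressed probe set, from 171.7 to 277.0, a log2 ratio of 0.64. Whether the RAB27A and RAB27B ratios differ beyond the spread between cultures could not be tested with 1 array a group.

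Of 21 listed transcription factors of the lineage, 16 were expressed, all above the background limit on at least 1 array, and 11 of them were higher, with a median of 0.21. MEIS1, a homeobox factor, was highest at 1.78 on its single expressed probe set, from 73.1 within background to 289.2, at least 3.84-fold. Its other probe set, 1559477_s_at, read 22.3 and 35.1, within background on both arrays. GFI1B, a repressor needed for platelet production, went from 554.1 to 970.0, a log2 ratio of 0.78 with 0.63 on its second probe set. GATA1, which activates ITGA2B and many other genes of this lineage, stood at 0.22, and NFE2, needed for late megakaryocyte genes, at 0.26. MYB, a factor of progenitors, was lowest at -0.79. FLI1, an ETS factor of megakaryocytes, gave -0.68 on a dim probe set, 96.6 and 55.0, and 0.03 on another, so its probe sets did not give a direction.

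In the platelet cytoskeleton list, 9 of 10 genes were expressed, 5 were higher and the median was 0.049. TUBB1, the beta-tubulin of the platelet rim, went from 91.3 to 314.5, a log2 ratio of 1.62, with 0.44 on a dimmer probe set. TPM1, a tropomyosin gene, went from 320.1 to 688.1 at 1.06 and lay between 0.60 and 1.20 over 3 expressed probe sets. CAVIN2, a membrane-coat gene abundant in platelets, went from 527.8 to 100.6 on 218711_s_at, a log2 ratio of -2.24, while its other probe set, 222717_at, read 210.2 and 216.2, at 0.03. The probe sets of CAVIN2 disagree, and no direction is given for the gene.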

How the data were processed

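The authors deposited 1 table of intensity values for 2 arrays, linear and in arbitrary units with a floor of 1. How they were background-corrected and scaled is not stated in the labels or the file, and 0 columns belonged to other samples. Per the labels' protocols, Trizol RNA was labelled with biotin by the standard Affymetrix method. From the deposited intensity values log2(signal + 14.9) was taken, where 14.9 is the 25th percentile of the table, and ratios were centred on the median over expressed genes, which was 0.0090. Gene names come from the platform annotation, which names a single symbol for 41091 probe sets, more than that for 1801 and no symbol for 11721. Beyond the 10 genes, only probe sets with 1 symbol were used, so some listed genes were not analysed here. Array number limits the precision. Named were all probe sets of the 10 genes, the highest, the lowest and any 2-fold gene of each platelet list, PF4V1, GATA1, FLI1, GFI1B, NFE2 and TUBB1. Genes outside that rule (ITGB5, ITGA2, FCER1G, P2RY12, FERMT3, RAP1A, RASGRP2, SKAP2, VWF, RAB27B, F2R, P2RY1, P2RX1, ROBO4, CDH5, KDR, TAL1, LMO2 and the erythroid ALAS2 and SLC4A1) were chosen after their values were seen. Members and lists were chosen with earlier results of these data known. Alternatives changed the pseudocount, centring, filter, normalization (quantile, loess with a span of 0.3), probe sets per gene and background limit. The calculation was tested on simulated data. Python 3.11.15, NumPy 2.4.6, pandas 2.3.3, statsmodels 0.14.6 and matplotlib 3.10.9 were used.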

Additional observations from a re-analysis of the deposited data

How the results depend on the processing

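No paired analysis was possible because each group held 1 array. Over the pseudocount, centring and normalization alternatives the log2 ratio of GP6 lay between 0.69 and 0.74, that of the brighter shared GP1BB probe set between 0.65 and 0.68, and that of ITGA2B on 206493_at between 0.85 and 1.05. The mean over both expressed ITGA2B probe sets was 1.28. On 206494_s_at, dim in the control, the ratio moved from 1.02 with 4 times the pseudocount to 1.82 with 0.25 times it. The count at least 2-fold higher was 2 without centring and with 0.25 times the pseudocount, both times through 206493_at, and 2 without a filter, through 216956_s_at; at 1.5-fold it was 4. What counts as detected depends on the background limit: with the 95th percentile of the bacterial probe sets, 50.7, in place of the highest, 10 probe sets of 7 genes, the shared GP1BB included, exceeded it in place of 5 of 3, adding ITGB3, GP1BA, PF4 and SELP, while GP9, GP5 and PPBP stayed under it. With each array's own highest bacterial signal, GP1BA exceeded the limit with miR-34a, for 6 probe sets of 4 genes. The number of platelet list genes higher was 80 of 123 without a filter, 51 of 73 with the filter at the 75th percentile and 66 of 96 with probe sets averaged.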
